A study of Mus musculus with 12 samples.

Results

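Cytochrome P450 (Cyp) genes were examined in RNA-Seq of sorted mouse thymic epithelial cells (TEC). The genes were chosen by symbol alone, as Cyp followed by a family number, a subfamily letter and a gene number, which left out pseudogenes and took no expression value into account, and 94 of the 34677 genes in the table of log2 values met the rule. All 94 are annotated as protein coding. The 12 libraries came from cortical TEC (cTEC, Epcam+CD45-Ly51+UEA1-) and medullary TEC (mTEC, Epcam+CD45-Ly51-UEA1+) of WT C57BL/6 control mice and of Aβ0/0 mice, with 3 libraries in each of the 4 groups. Each library was made from the thymi of a pool of 5 to 10 mice of 4 to 6 weeks of age. Aβ0/0 mice carry a disrupted H2-Ab1, which encodes the β chain of MHC class II, in every cell, so a difference between genotypes cannot be assigned to the epithelium itself. Levels of single genes are given as counts-per-million (CPM) of TMM-scaled library sizes. Sums over a list are CPM of unscaled library totals, so they differ from the sum of the single levels. The H2-Ab1 level lay between 6507 and 11199 CPM in the 6 WT libraries and between 1900 and 3853 CPM in the 6 Aβ0/0 libraries, so that RNA from the locus was present in both. The depth was 21710319 to 36139815 estimated counts per library. The labelled subsets were checked against their markers: 8 cTEC markers summed to 10438 to 25674 CPM in cTEC and 1485 to 3091 CPM in mTEC, and 9 mTEC markers to 1464 to 2055 CPM in cTEC and 4117 to 5288 CPM in mTEC, with Ccl21a at 0 in all libraries. Krt5 and Krt14 were the highest of the mTEC list in every library. Of the 8 mTEC markers tested, 5 were higher in WT mTEC than in WT cTEC at an adjusted p under 0.05 (edgeR). Krt14, Cldn4 and Cd80 did not pass (adjusted p = 0.296, 0.0832 and 0.0759). The study lists fewer sorted mTEC for each Aβ0/0 pool than for any WT pool, so the number of cells and the genotype cannot be told apart in mTEC. It also lists fewer cTEC than mTEC for each pool of either genotype. The number of cells and the subset therefore cannot be told apart in the comparisons of mTEC with cTEC, including the numbers of genes detected. In bulk samples, fewer cells of a kind that express a gene and less RNA of it per cell cannot be told apart either.

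Cytochrome P450 enzymes are heme proteins that insert oxygen into their substrates with electrons from a partner reductase. Some members have one physiological substrate, as in the synthesis of steroid hormones, bile acids and active vitamin D or in the breakdown of retinoic acid, while many members of the CYP2, CYP3 and CYP4 families act on drugs, foreign compounds and fatty acids, mostly in liver, intestine, kidney, airway and olfactory epithelium. Medullary TEC are known for transcribing genes of many other tissues at low level, a process called promiscuous gene expression, which depends in part on the regulators Aire and Fezf2 and which exposes developing T cells to self antigens. Several P450 enzymes are known targets of autoantibodies in autoimmune disease of the adrenal gland and the liver.

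The sequence before the start site is shown for members whose levels are described further on: the neighbours Cyp1a1 and Cyp1a2, Cyp26a1, and the 6 tested members of the Cyp2c cluster. RefSeq promoter windows of 250 bases before and 50 bases after the start (GRCm38.p6) were found by symbol for 73 of the 94 members, as 83 windows. Motifs were searched on both strands. TATAAA, the TATA box, was in 38.6% of the members' windows and in 13.6% of all 32851 windows. GCGTG, the core of the element that the aryl hydrocarbon receptor binds, was in 20.5% of the members' windows and in 32.4% of all. A direct repeat of AGTTCA with 5 bases between the copies, a form of the retinoic acid response element, was in 8 of all windows (0.0244%), and Cyp26a1 was the member that had it. The motifs do not overlap each other in the stretches printed here, and capitals mark their letters, on the strand in which the window is read or as the reverse complement. The 250 bases before the start of Cyp1a1 (chr9:57697363-57697612, plus strand) hold GCGTG beginning 54 bases and TATAAA beginning 30 bases before the start, and those of Cyp1a2 (chr9:57683656-57683905, minus strand) hold TATAAA beginning 29 bases before it. The 250 bases before Cyp26a1 (chr19:37697558-37697807, plus strand) hold the repeat, on the reverse strand, beginning 32 bases before the start.
Cyp1a1: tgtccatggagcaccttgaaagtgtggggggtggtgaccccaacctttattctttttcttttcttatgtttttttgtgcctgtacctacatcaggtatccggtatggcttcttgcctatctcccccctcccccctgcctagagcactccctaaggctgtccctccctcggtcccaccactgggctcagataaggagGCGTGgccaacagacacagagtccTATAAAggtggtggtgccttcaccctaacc
Cyp1a2: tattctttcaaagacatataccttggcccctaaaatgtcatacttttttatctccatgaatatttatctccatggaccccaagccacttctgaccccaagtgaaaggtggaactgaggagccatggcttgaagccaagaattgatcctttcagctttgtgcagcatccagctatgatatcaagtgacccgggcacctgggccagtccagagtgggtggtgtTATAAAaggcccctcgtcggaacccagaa
Cyp26a1: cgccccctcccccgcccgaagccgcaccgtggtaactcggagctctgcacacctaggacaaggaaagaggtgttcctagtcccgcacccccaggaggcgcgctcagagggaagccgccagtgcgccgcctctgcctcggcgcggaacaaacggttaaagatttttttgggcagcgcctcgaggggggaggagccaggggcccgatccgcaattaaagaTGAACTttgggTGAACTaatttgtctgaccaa

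The Cyp2c genes shown lie in one cluster on chromosome 19. For Cyp2c55 (chr19:39006959-39007018, plus strand), Cyp2c65 (chr19:39060946-39061005, plus strand), Cyp2c29 (chr19:39287025-39287084, plus strand), Cyp2c37 (chr19:39992364-39992423, plus strand), Cyp2c70 (chr19:40187287-40187346, minus strand) and Cyp2c68 (chr19:39741102-39741161, minus strand) the 60 bases before the start are given. TATAAA was found there in Cyp2c55, Cyp2c29 and, as its reverse complement, Cyp2c70.
Cyp2c55: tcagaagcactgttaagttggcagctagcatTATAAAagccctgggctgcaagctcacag
Cyp2c65: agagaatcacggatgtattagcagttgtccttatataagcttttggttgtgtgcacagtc
Cyp2c29: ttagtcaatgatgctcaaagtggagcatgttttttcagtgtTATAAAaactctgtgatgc
Cyp2c37: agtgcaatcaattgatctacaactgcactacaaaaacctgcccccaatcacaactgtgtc
Cyp2c70: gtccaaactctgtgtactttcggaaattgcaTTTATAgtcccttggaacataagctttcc
Cyp2c68: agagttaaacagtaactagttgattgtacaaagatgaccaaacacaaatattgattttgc

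Levels were compared between genes as transcripts-per-million (TPM), which corrects for length. Cyp2f2, known as the naphthalene-activating enzyme of airway club cells, and Cyp2a5, an enzyme of liver and olfactory mucosa that oxidizes coumarin and nicotine, stood above the other members, with means over the 12 libraries of 103.5 and 86 TPM. Cyp4f16, of the family that oxidizes leukotrienes and fatty acids, Cyp1b1, which oxidizes estradiol and foreign aromatic compounds, and Cyp4f13 followed at 21.5, 20.9 and 20.5 TPM. In WT mTEC the highest means were those of Cyp2a5 (157 ± 21.7 TPM, SD, n = 3), Cyp2f2 (147 ± 16.6 TPM) and Cyp4f16 (39.0 ± 6.24 TPM), and Cyp2a5 and Cyp2f2 do not differ beyond their spread. In WT cTEC Cyp2f2 (82.5 ± 49.1 TPM) was followed by Cyp1b1 (21.2 ± 9.59 TPM) and Cyp4f13 (17.6 ± 6.04 TPM), which overlapped each other. The order was Cyp2f2 (74.7 ± 21.3 TPM), Cyp1b1 (41.0 ± 3.00 TPM) and Cyp2j9 (20.2 ± 16 TPM) in Aβ0/0 cTEC and Cyp2a5 (164 ± 118 TPM), Cyp2f2 (110 ± 14.9 TPM) and Cyp4f13 (27.9 ± 2.95 TPM) in Aβ0/0 mTEC.

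**Figure D1:**
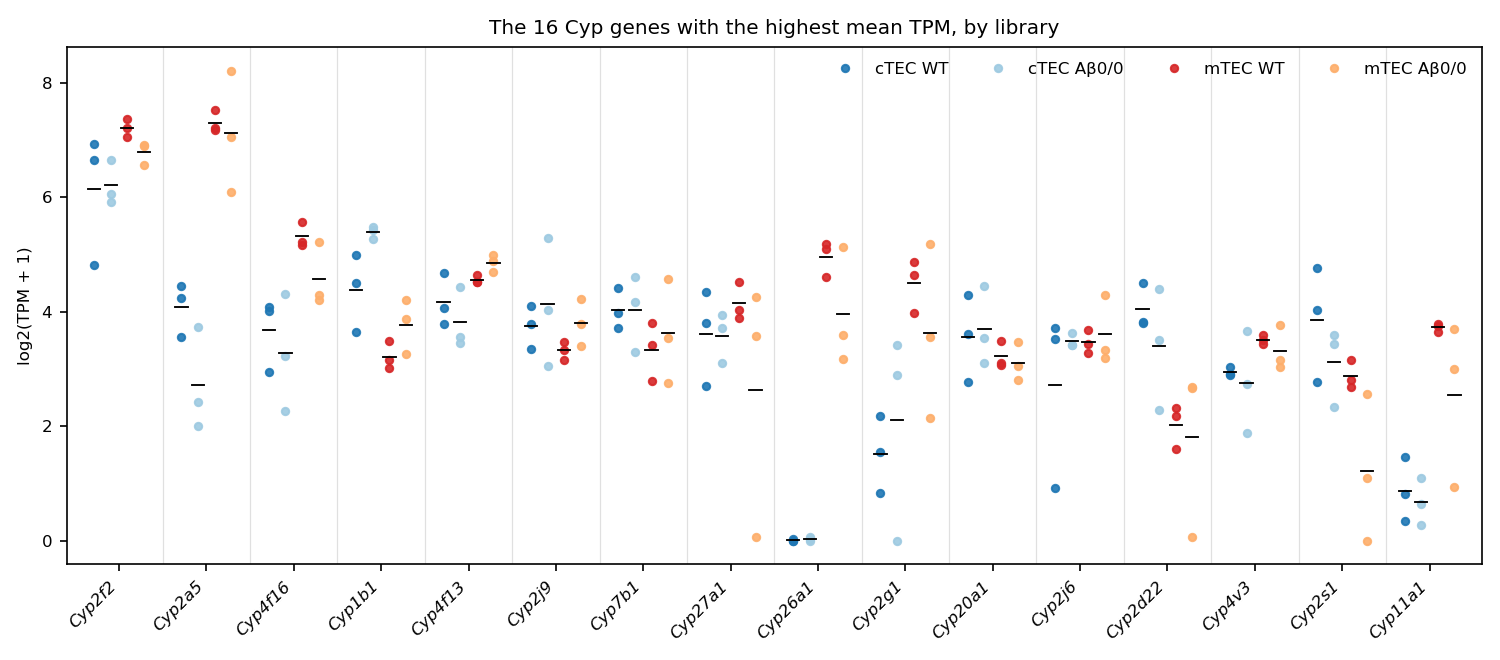
Levels of the 16 Cyp genes with the highest mean TPM, as log2(TPM + 1) on the vertical axis, with 1 point per library, colours for the 4 groups and a bar at the mean of each group's 3 points. Cyp26a1 lies at the bottom in all 6 cTEC libraries and far above it in all 6 mTEC libraries, and single Aβ0/0 mTEC libraries drop to the bottom for Cyp27a1, Cyp2d22 and Cyp2s1.

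Far more Cyp genes were detected in WT mTEC than in any other group. After thinning all libraries to 21605226 counts, and counting a member as detected from 5 counts on, 81, 72 and 76 of the 94 members were detected in WT mTEC replicates 1, 2 and 3, and 47, 32 and 33 in Aβ0/0 mTEC. In cTEC the numbers were 33, 31 and 29 for WT and 29, 27 and 25 for Aβ0/0. The means were 76.3 ± 4.51 (SD, n = 3) and 37.3 ± 8.39 in WT and Aβ0/0 mTEC, and 31 ± 2 and 27 ± 2 in WT and Aβ0/0 cTEC. The ranges of WT and Aβ0/0 mTEC did not overlap, Aβ0/0 mTEC replicate 1 stood above the other Aβ0/0 mTEC libraries, and the cTEC ranges touched at 29. No p was computed for these numbers. The share of members detected was 76.6 to 86.2% in WT mTEC, above the 57.9 to 60.4% of all genes detected in the same libraries, and 34.0 to 50% in Aβ0/0 mTEC, where 45.4 to 51.0% of all genes were detected. Summed over the 94 members, the level was 931, 1010.0 and 943 CPM in WT mTEC and 980, 760 and 578 CPM in Aβ0/0 mTEC. These ranges overlap, also with TMM-scaled library sizes (858 to 1012 CPM and 592 to 935 CPM), and Cyp2f2 and Cyp2a5 were the largest contributors in each of the 6 libraries.

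**Figure D2:**
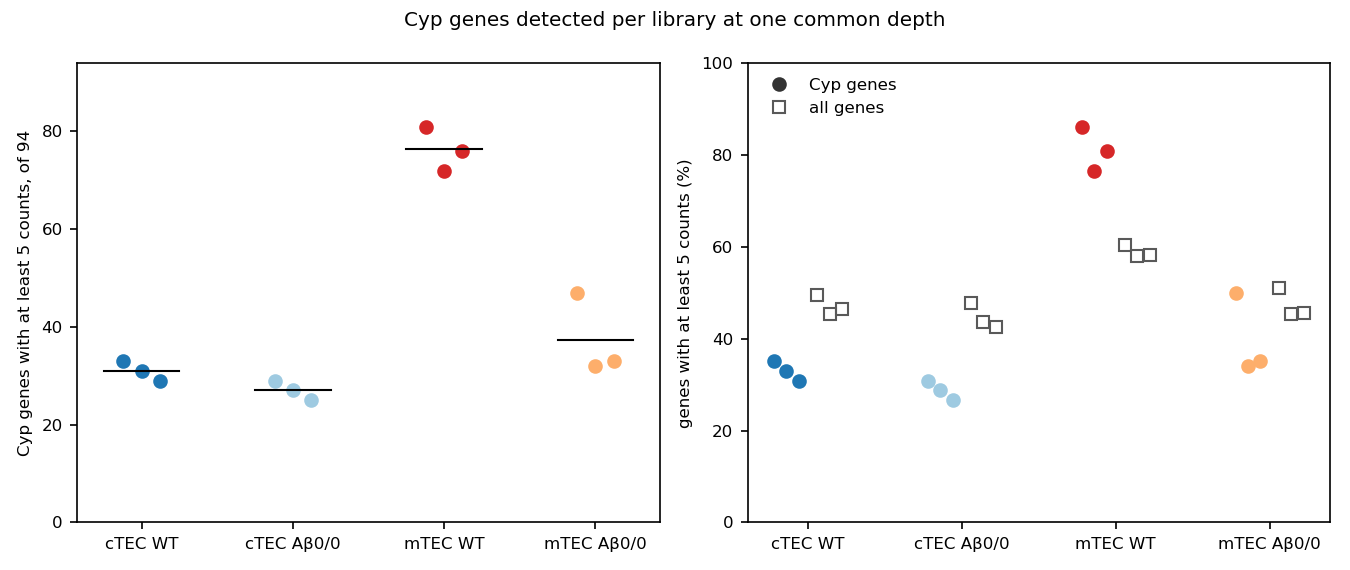
Cyp genes with at least 5 counts in each library after thinning to one depth, as a number of the 94 (left) and as a percent beside that of all genes (right), with 1 point per library and a line at the mean of each group. The 3 WT mTEC libraries (72 to 81 genes) sit above all others, and only there is the percent of Cyp genes above that of all genes.

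By group, 31 members were detected in at least 1 library of each of the 4 groups, 17 in mTEC of both genotypes but not in cTEC, and 32 in WT mTEC alone. Those 32 include Cyp11b2 and Cyp21a1 of adrenal steroid synthesis, Cyp24a1 of vitamin D breakdown, Cyp7a1 and Cyp8b1 of bile acid synthesis, Cyp1a1 and 11 Cyp2c genes. The 5 members detected in no group were Cyp2c66, Cyp2d11, Cyp2j7, Cyp3a16 and Cyp4a32, and Cyp2j7 was the member without a single count in WT mTEC. A member with no count in any of its 3 libraries was rare in WT mTEC (1 of 94) and common in Aβ0/0 mTEC (35), WT cTEC (43) and Aβ0/0 cTEC (49). Each library at 0 still allows a level of up to 3 counts, so absence here means not detectable at this depth.

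**Figure D3:**
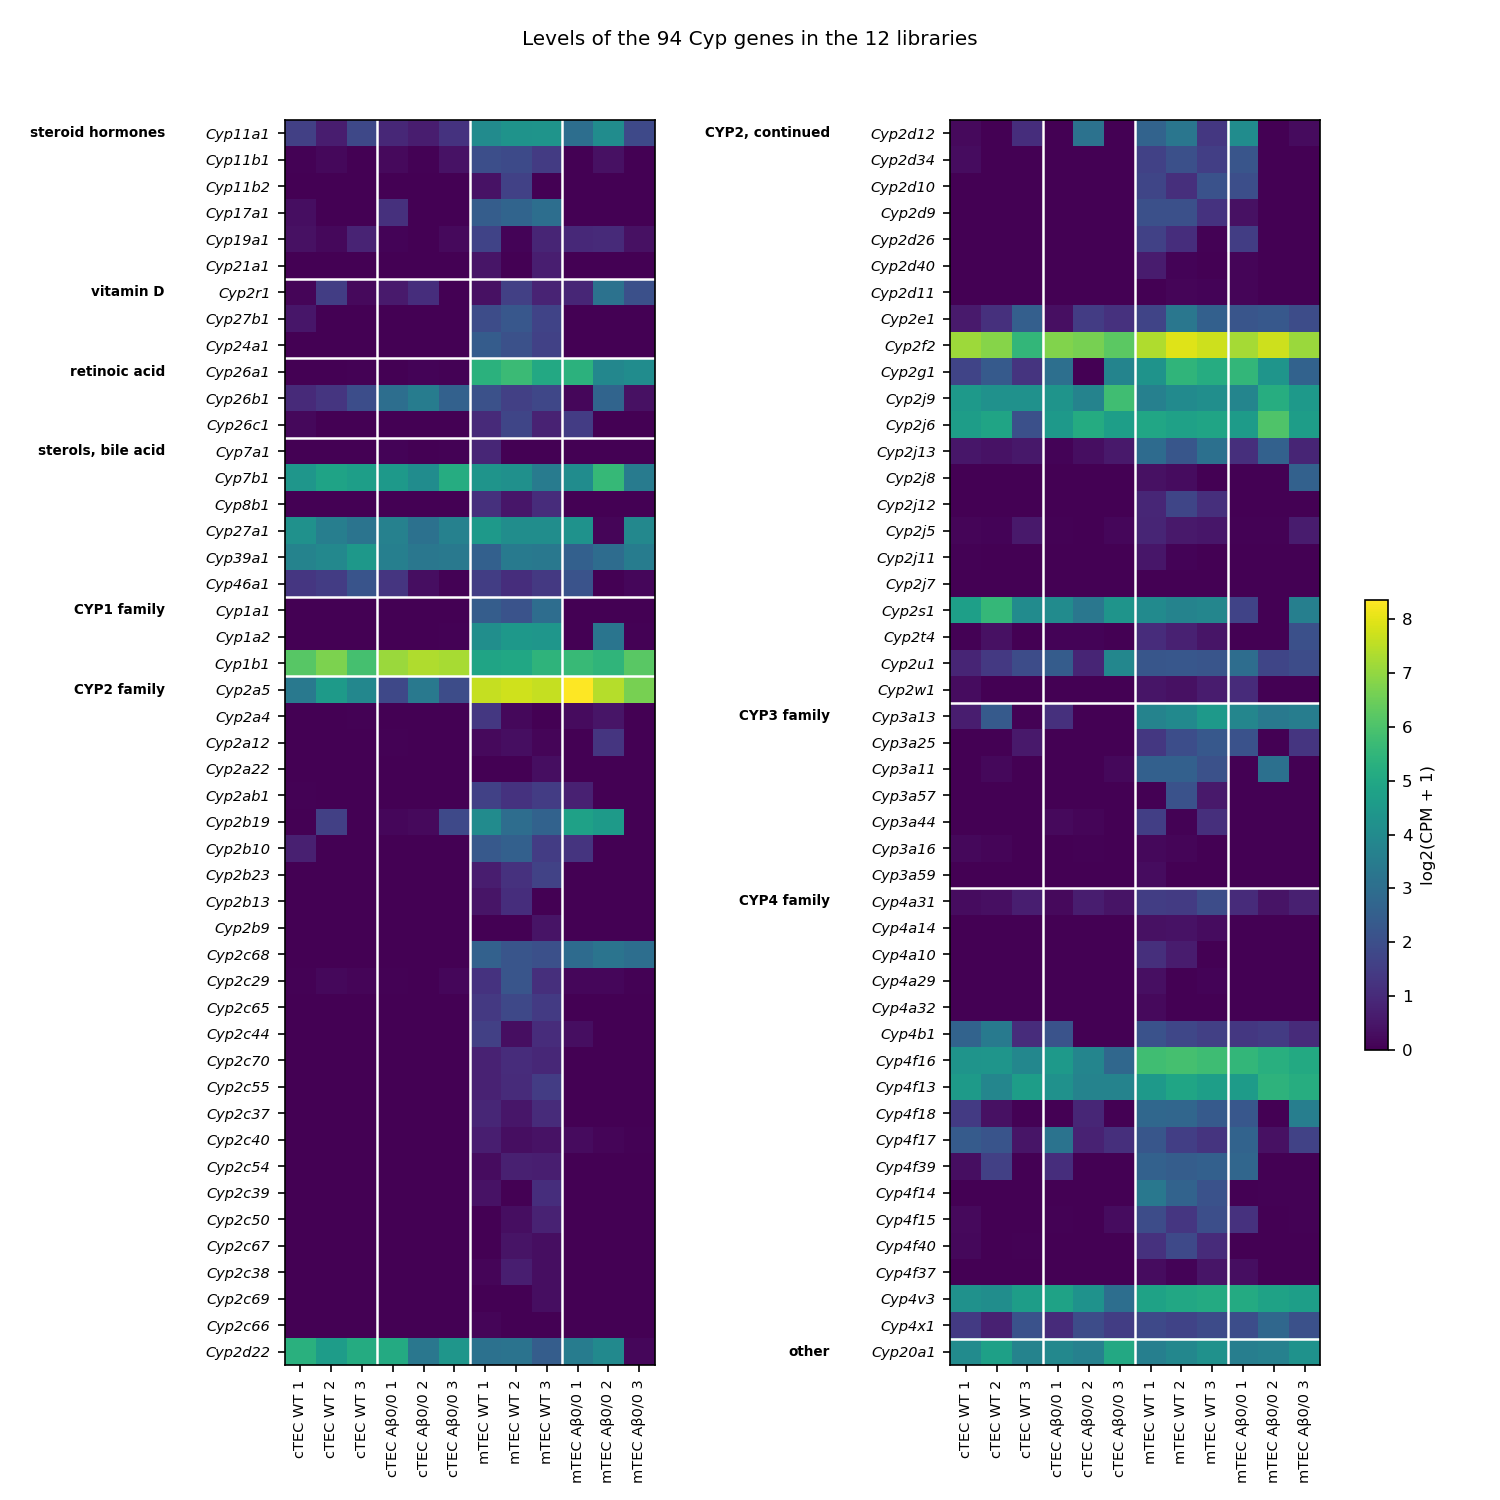
Levels of the 94 Cyp genes as log2(CPM + 1) (colour) in the 12 libraries (columns, by group), with genes in rows by role or family and white lines between groups. The rows of Cyp1a1, Cyp24a1 and Cyp2c65 are dark in cTEC, lit in all 3 WT mTEC libraries and dark in Aβ0/0 mTEC, those of Cyp2c68 and Cyp26a1 are lit in mTEC of both genotypes, and those of Cyp1a2 and Cyp3a11 are lit in Aβ0/0 mTEC replicate 2.

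The first comparison asked which Cyp genes differ between the medullary and the cortical epithelium of WT mice. Of the 61 members that passed the filter on low counts, 29 were higher in mTEC and 2 in cTEC (edgeR's quasi-likelihood test, Benjamini-Hochberg adjusted p under 0.05), beside 18.0% and 8.81% of all genes tested. The libraries did not overlap for 42 members with mTEC above and 6 with mTEC below, beside 30.1% and 17.2% of all genes. The filter itself let 36 members through only because of their counts in mTEC, so their direction is partly fixed by the filter. The other 33 members had too few counts to be tested.

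Of the 4 steroid hormone genes tested, 3 were higher in WT mTEC. Cyp11a1, which cleaves the side chain of cholesterol in the first step of steroid synthesis, was at 15.4, 18.5 and 19.1 CPM in WT mTEC and at 2.02, 0.58 and 2.51 CPM in WT cTEC, with no overlap and a log2 fold change of 3.38 (SE 0.61, adjusted p = 0.00633). Cyp17a1, which leads from progestins to androgens, was at 4.52, 5.53 and 7.1 CPM in mTEC, and in cTEC at 0.247 CPM in replicate 1 and at 0 in the others (log2 fold change 6.11, SE 1.44, adjusted p = 0.0159). Cyp11b1, of the last step to corticosterone, was at 3.03, 2.69 and 1.76 CPM in mTEC and at most 0.122 CPM in cTEC (log2 fold change 5.35, SE 1.14, adjusted p = 0.0102). Cyp19a1, the aromatase that makes estrogens, overlapped between mTEC (0.0604 to 2.22 CPM) and cTEC (0.122 to 0.798 CPM) and missed the threshold (adjusted p = 0.484). Cyp11b2, the aldosterone synthase, and Cyp21a1 were too low to be tested, with means of 0.809 ± 1.12 and 0.337 ± 0.317 CPM (SD, n = 3) in WT mTEC and no count in WT cTEC. The call of Cyp17a1 was lost without any one of the WT mTEC libraries (adjusted p between 0.0577 and 0.0649).

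Of the 3 vitamin D genes 1 passed: Cyp24a1, which inactivates vitamin D, was at 4.35, 3.17 and 2.04 CPM in WT mTEC and without a count in WT cTEC, at least 29.1-fold lower (adjusted p = 0.00495). Cyp27b1, which makes the active form, was at 2.82, 3.81 and 2.23 CPM in mTEC and had 10 counts in 1 cTEC library (adjusted p = 0.0709). Of the retinoic acid genes 2 of 3 passed. Cyp26a1, which breaks down retinoic acid and whose promoter holds the AGTTCA repeat printed above, was at 39.4, 50.4 and 32 CPM in WT mTEC, and a single count was found in the 3 WT cTEC libraries together. The ratio of summed counts was 3355 (95% counting interval 602 to 132562), and the log2 fold change of 11.25 (SE 0.68, adjusted p = 1.55e-04) had the smallest adjusted p of the members in this comparison. Its neighbour Cyp26c1 was at 0.981, 2.39 and 0.722 CPM in mTEC with 3 counts in cTEC (adjusted p = 0.033, and 0.0821 with the replicate number as a block), while Cyp26b1 at 1.96 to 3.2 CPM in mTEC and 0.988 to 2.91 CPM in cTEC overlapped. Cyp1a2, a liver enzyme that oxidizes caffeine, was at 16.4, 21.1 and 20.1 CPM in mTEC and without a count in WT cTEC, at least 175-fold lower there (log2 fold change 12.09, SE 0.83, adjusted p = 6.08e-04). Cyp1a1, its inducible relative, was at 4.57, 3.42 and 6.88 CPM in mTEC and again without a count in cTEC, at least 45.2-fold lower (adjusted p = 0.00369). In Cyp1b1, of the same family, the direction turned, and it was at 28.6, 30.6 and 42.6 CPM in mTEC and at 72.3, 104 and 57.7 CPM in cTEC, lower in mTEC in every library (log2 fold change -1.20, SE 0.29, adjusted p = 0.0175). Without WT mTEC replicate 1 or 2 the adjusted p of Cyp1b1 was 0.079 and 0.0807. The call of Cyp26c1 was lost without any WT mTEC library or without WT cTEC replicate 2 (adjusted p between 0.0641 and 0.126).

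In the CYP2 family, 15 of 28 tested members were higher in WT mTEC and 1 in cTEC. Cyp2a5 was at 194, 216 and 197 CPM in mTEC and at 9.51, 22.6 and 13.6 CPM in cTEC, a 13.3-fold difference of the means without overlap (log2 fold change 3.73, SE 0.35, adjusted p = 5.47e-04). Its transcript is 98.2% identical to that of Cyp2a4 over 1739 bases, so reads could be split between both. Cyp2j13, of the epoxygenase subfamily, was at 6.53, 3.75 and 7.44 CPM in mTEC and at most 0.439 CPM in cTEC (adjusted p = 0.006). Cyp2g1, known from olfactory mucosa, was at 18.7, 42.8 and 35.4 CPM against 2.26, 4.21 and 1.4 CPM (adjusted p = 0.00311). All 6 tested Cyp2c members were higher in mTEC, and 5 of them, Cyp2c37, Cyp2c55, Cyp2c65, Cyp2c68 and Cyp2c70, had no count in WT cTEC, being at least 7.04- to 35.8-fold lower there. Cyp2d9 and Cyp2d10 were likewise at 0 in all WT cTEC libraries, while Cyp2d22 went the other way, with 7.59, 8.04 and 4.46 CPM in mTEC and 38.2, 23.3 and 34.6 CPM in cTEC (log2 fold change -2.26, SE 0.37, adjusted p = 0.0041). Cyp2f2, the most abundant member, was at 162, 244 and 207 CPM in mTEC and at 140, 114 and 45.5 CPM in cTEC, which did not overlap, but it missed the threshold (adjusted p = 0.0974).

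Of the CYP3 and CYP4 families, 1 of 3 and 4 of 12 tested members were higher in WT mTEC. Cyp3a11, a main drug-metabolizing enzyme of mouse liver, was at 4.86, 4.96 and 3.2 CPM in mTEC and had 4 counts in 1 cTEC library (log2 fold change 6.47, SE 1.31, adjusted p = 0.00885). Cyp4f14, of the group that inactivates leukotriene B and oxidizes fatty acids, was at 9.17, 5.35 and 3.33 CPM in mTEC and without a count in WT cTEC, at least 54.3-fold lower (adjusted p = 0.00373). Cyp4f16 was expressed on both sides, at 54.3, 58.6 and 53.1 CPM in mTEC and 19, 19.6 and 13.5 CPM in cTEC (log2 fold change 1.67, SE 0.24, adjusted p = 0.00272). Over 776 bases its transcript is 98.2% identical to that of Cyp4f37. Of the cholesterol and bile acid genes, Cyp8b1, which directs bile acid synthesis to cholic acid, was at 1.24, 0.423 and 1.07 CPM in mTEC and without a count in WT cTEC (adjusted p = 0.00954). Cyp7b1 and Cyp39a1, which act on oxysterols, had all 3 WT mTEC libraries below the cTEC libraries, at means of 15.4 ± 4.77 against 24.2 ± 3.83 CPM and 7.91 ± 2.60 against 15.7 ± 4.58 CPM (SD, n = 3), and missed the threshold (adjusted p = 0.199 and 0.138).

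Each cTEC library was taken to share its pool of mice with the mTEC library of the same genotype and number, from the study's list of sortings, although the sample labels do not state it. When this number was added to the fit as a block, 21 members passed in WT (19 higher in mTEC and 2 higher in cTEC), all of them among the 31. The members that passed only without the block were Cyp26c1, Cyp2b23, Cyp2c37, Cyp2c55, Cyp2c70, Cyp2d34, Cyp2j12, Cyp4f15, Cyp4f40 and Cyp8b1, with adjusted p between 0.0504 and 0.0821 in the blocked fit. Cyp2d34, Cyp4f15 and Cyp4f40 also lost their calls without any one WT mTEC library (adjusted p between 0.0563 and 0.116).

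In Aβ0/0 mice the same comparison of mTEC with cTEC gave 3 members higher in mTEC and 1 higher in cTEC among 30 tested, beside 3.45% and 2.15% of all genes. The libraries did not overlap for 11 members, with mTEC above, and for 1 with mTEC below, beside 15.1% and 12.7% of all genes. The filter let 8 of the 30 through by their mTEC counts alone and 5 by their cTEC counts alone, and Cyp26a1 and Cyp2c68, with at most 3 counts per cTEC library, had to be higher in mTEC to be tested. Cyp26a1 was at 40.3, 13.6 and 15.6 CPM in Aβ0/0 mTEC and at 0, 0.0605 and 0.0276 CPM in Aβ0/0 cTEC, a ratio of summed counts of 752 (95% counting interval 257 to 3652, adjusted p = 0.00869). Cyp2a5 was at 326, 172 and 98 CPM in mTEC and 2.48, 9.44 and 2.84 CPM in cTEC (log2 fold change 5.34, SE 0.74, adjusted p = 0.00886). Replicate 1 was highest in mTEC for both genes, and neither overlapped. Cyp2c68, a Cyp2c gene with 98.0% identity to Cyp2c40, was at 6.62, 8.34 and 7.12 CPM in mTEC and without a count in cTEC, at least 80.8-fold lower (adjusted p = 0.0301, and 0.131 with the replicate number as a block). Cyp1b1 was at 49, 43.6 and 74.2 CPM in mTEC and at 138, 165 and 154 CPM in cTEC (log2 fold change -1.45, SE 0.28, adjusted p = 0.0298). The calls of Cyp26a1 and Cyp2a5 held without any one library, whereas Cyp2c68 lost its call without any one of the 6 libraries (adjusted p between 0.0765 and 0.0859) and Cyp1b1 without any one but Aβ0/0 mTEC replicate 3 (adjusted p between 0.0725 and 0.0999).

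The genotypes were then compared within mTEC. Of 63 members tested, 14 were higher in WT mTEC and none was higher in Aβ0/0 mTEC, beside 5.32% and 0.338% of all genes tested, and 17 had an unadjusted p under 0.05. In 24 members every WT library lay above every Aβ0/0 library and in 3 below, beside 18.7% and 7.67% of all genes. Of the 63, 38 passed the filter through their WT counts alone and 1 through its Aβ0/0 counts alone, so most of the genes that could be tested had to be higher in WT. All 14 had at most 3 counts in every Aβ0/0 mTEC library, and 12 of them had none. In WT mTEC the 14 were low, with means between 0.771 and 5.95 CPM, and the adjusted p lay between 0.0352 and 0.0487. No call was made for any of the 14 without WT mTEC replicate 1, 2 or 3 or without Aβ0/0 mTEC replicate 2 or 3 (adjusted p between 0.0587 and 0.157), while without Aβ0/0 mTEC replicate 1 all 14 kept it among 23 members called. edgeR fits without the filter on low counts, on all 12 libraries or with the replicate number as a block also called none of the 14 (adjusted p between 0.0736 and 0.2304), and DESeq2 on the same libraries called 12 of them. Without Aβ0/0 mTEC replicate 2 the 1 member called was Cyp1a2, which is named for that reason.

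Among the genes of hormone and vitamin synthesis, 3 passed between WT and Aβ0/0 mTEC in the steroid and vitamin D groups together. Cyp17a1 had 106, 183 and 226 counts in WT mTEC (4.52, 5.53 and 7.1 CPM) and 0 in each Aβ0/0 mTEC library, at least 51.2-fold lower (adjusted p = 0.0352). Cyp27b1, which makes active vitamin D, had 66, 126 and 71 counts in WT mTEC and 0 in each Aβ0/0 mTEC library, at least 26.4-fold lower. Cyp24a1, which inactivates vitamin D, had 102, 105 and 65 counts against 0, at least 28.5-fold lower. Both enzymes were detected in all 3 WT mTEC libraries and in no Aβ0/0 library of either subset, and Cyp27b1 also in WT cTEC replicate 1. The other tested steroid genes missed the threshold. Cyp11a1 was at 7.04, 15.7 and 2.6 CPM in Aβ0/0 mTEC, overlapping the 15.4 to 19.1 CPM of WT (log2 fold change 1.05, SE 0.66, adjusted p = 0.556), and Cyp11b1 at 0, 0.285 and 0 CPM lay below all WT libraries (log2 fold change 4.64, SE 1.64, adjusted p = 0.225). Cyp2r1, which carries out the first activating step of vitamin D, had its highest value in Aβ0/0 mTEC replicate 2 (7.88 CPM) and overlapped between genotypes.

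Of the CYP1 genes and of the cholesterol and bile acid genes, 1 each passed between WT and Aβ0/0 mTEC. Cyp1a1 had 107, 113 and 219 counts in WT mTEC and 0 in the other 9 libraries, at least 44.3-fold lower in Aβ0/0 mTEC (adjusted p = 0.0352). Its neighbour Cyp1a2 was at 16.4, 21.1 and 20.1 CPM in WT mTEC and at 0, 8.45 and 0.0377 CPM in Aβ0/0 mTEC, where replicate 2 alone carried a signal (log2 fold change 2.77, SE 1.89, adjusted p = 0.6). Cyp8b1 had 29, 14 and 34 counts in WT mTEC and 0 in Aβ0/0 mTEC, at least 8.14-fold lower (adjusted p = 0.036). Cyp7a1, the rate-limiting enzyme of bile acid synthesis, had 20 counts in WT mTEC replicate 1 and none in the other mTEC libraries. Cyp27a1, the sterol hydroxylase of mitochondria, was at 21.7, 16 and 15.9 CPM in WT mTEC and at 18.2, 0.0713 and 13.9 CPM in Aβ0/0 mTEC, so its low value in replicate 2 stands alone. Such a drop (at most 3 counts where both other libraries of the group had at least 2 CPM) was found in Aβ0/0 mTEC replicate 2 also for Cyp2s1 and Cyp4f18 and in replicate 3 for Cyp2b19 and Cyp2d22, and it occurred in 2.80% and 2.76% of all such genes in those libraries, against 0.0135 to 0.0798% in the WT mTEC libraries.

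In the CYP2 family 7 of 30 tested members were higher in WT mTEC. Of these, Cyp2c29, Cyp2c37, Cyp2c55, Cyp2c65 and Cyp2c70 are 5 of the 6 tested Cyp2c genes. Cyp2c65 had 38, 82 and 53 counts in WT mTEC and 0 in Aβ0/0 mTEC, at least 17.2-fold lower. Cyp2c29, a fatty acid epoxygenase of liver, had 31, 119 and 37 counts in WT mTEC and 3, 3 and 1 in Aβ0/0 mTEC, a ratio of 24.4 (95% counting interval 11.6 to 61.4, adjusted p = 0.0487). The sixth, Cyp2c68, had 117, 120 and 100 counts in WT mTEC and 172, 234 and 189 in Aβ0/0 mTEC, so that on the CPM scale each Aβ0/0 library lay above each WT library (log2 fold change -0.93, SE 0.64, adjusted p = 0.606). The other CYP2 members that passed were Cyp2b23 with 14, 42 and 68 counts and Cyp2j12 with 20, 77 and 38 counts in WT mTEC, and 0 in Aβ0/0 mTEC. Abundant members of the family did not pass: Cyp2a5 was at 194 to 216 CPM in WT mTEC and at 326, 172 and 98 CPM in Aβ0/0 mTEC (SE of the log2 fold change 0.41, adjusted p = 0.997), and Cyp2f2 at 149, 209 and 136 CPM in Aβ0/0 mTEC overlapped WT (log2 fold change 0.30, SE 0.23, adjusted p = 0.667).

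**Figure D4:**
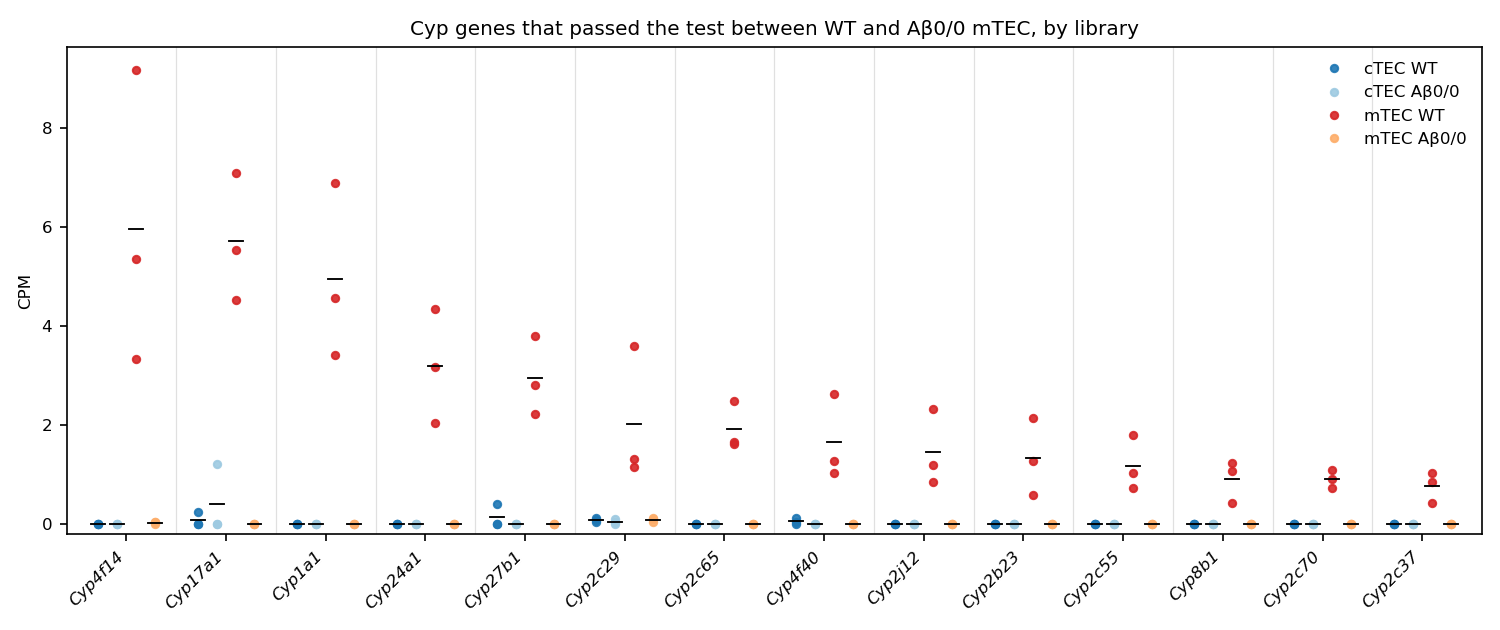
CPM of the 14 Cyp genes that passed the test between WT and Aβ0/0 mTEC, with 1 point per library, colours for the 4 groups and a bar at each group mean. All 3 WT mTEC points of every gene lie above all Aβ0/0 mTEC points, which are at or next to 0, and the cTEC points lie near 0 as well, apart from 1 Aβ0/0 cTEC library of Cyp17a1 at 1.22 CPM.

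In the CYP4 family 2 of 12 tested members were higher in WT mTEC. Cyp4f14 had 215, 177 and 106 counts in WT mTEC and 0, 1 and 1 in Aβ0/0 mTEC, a ratio of 227 (95% counting interval 62.5 to 1880, adjusted p = 0.0352). Cyp4f40 had 30, 87 and 33 counts against 0, at least 14.8-fold lower in Aβ0/0 mTEC. Cyp4f16, at 44.8, 37.7 and 33 CPM in Aβ0/0 mTEC, lay below its 53.1 to 58.6 CPM in WT without overlap (log2 fold change 0.50, SE 0.22, adjusted p = 0.346), and Cyp4v3 and Cyp4f13 overlapped. None of the 3 tested CYP3 members passed: Cyp3a13 was at 12.3, 14.6 and 21.9 CPM in WT mTEC and 13.2, 9.41 and 10.7 CPM in Aβ0/0 mTEC, and Cyp3a11 at 4.86, 4.96 and 3.2 CPM in WT and 0, 7.42 and 0 CPM in Aβ0/0 mTEC. For Cyp3a11, as for Cyp1a2, Aβ0/0 mTEC replicate 2 alone held the signal. The retinoic acid gene Cyp26a1 overlapped between genotypes in mTEC (log2 fold change 0.78, SE 0.48, adjusted p = 0.553), with Aβ0/0 replicate 1 (40.3 CPM) within the WT range and the others below it.

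Within cTEC no Cyp gene passed between WT and Aβ0/0 among 27 tested (edgeR), beside 0.0194% of all genes, 1 had an unadjusted p under 0.05, and DESeq2 on the same libraries called 0 as well. The libraries did not overlap for Cyp39a1, Cyp2a5 and Cyp46a1 with WT above and for Cyp26b1 and Cyp1b1 with WT below, beside 4.35% and 3.5% of all genes. Cyp1b1 was at 72.3, 104 and 57.7 CPM in WT cTEC and at 138, 165 and 154 CPM in Aβ0/0 cTEC (log2 fold change -0.95, SE 0.29, unadjusted p = 0.00854 and adjusted p = 1 in the edgeR fit over all genes). It was also the member with every Aβ0/0 library above every WT library in both subsets, with 28.6, 30.6 and 42.6 CPM in WT mTEC and 49, 43.6 and 74.2 CPM in Aβ0/0 mTEC (adjusted p = 0.304 in mTEC). Cyp26b1 was at 0.988, 1.46 and 2.91 CPM in WT cTEC and at 7.1, 10.4 and 5.07 CPM in Aβ0/0 cTEC (log2 fold change -2.05, SE 0.93, adjusted p = 1).

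Whether the genotype difference itself differed between mTEC and cTEC was tested on all 12 libraries. None of 63 members passed, beside 0.0103% of all genes, and 2 members, Cyp17a1 and Cyp11b1, had an unadjusted p under 0.05 (adjusted p = 0.432 and 0.588), while DESeq2 called 0 members too. Of the 14 members that passed in mTEC, 0 could be tested between genotypes in cTEC, since they did not pass the filter there, and 10 had no count in any cTEC library. In the test of the difference, 12 of the 14 had an SE over 100 on the log2 scale, so they could not pass, and that none did says nothing about them. The other two, Cyp17a1 and Cyp2c29, had differences of 12.7 (SE 3.75, adjusted p = 0.432) and 3.78 (SE 1.76, adjusted p = 0.729). Whether the genotype difference of the 14 is particular to mTEC is therefore not shown either way.

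By position, 71 of the 94 members lie in 10 clusters of at least 2 genes, joined where neighbours were within 1 Mb (GENCODE M21, GRCm38). In the Cyp2c cluster on chromosome 19 (chr19:39007019-40187333), 13 of 14 genes were detected in at least 1 WT mTEC library, 2 in Aβ0/0 mTEC and none in cTEC of either genotype. In the mixed cluster on chromosome 7 (chr7:25802475-27158668), which holds Cyp2a5 and Cyp2f2, all 13 genes were detected in WT mTEC, 9 in Aβ0/0 mTEC, 7 in WT cTEC and 5 in Aβ0/0 cTEC. The Cyp3a cluster on chromosome 5 (chr5:145345279-146113287) had 5 of 6 genes detected in WT mTEC, 2 in Aβ0/0 mTEC, 1 in WT cTEC and none in Aβ0/0 cTEC. In the Cyp4f cluster on chromosome 17 and the Cyp2d cluster on chromosome 15 the numbers for WT and Aβ0/0 mTEC were closer, at 8 and 6 of 8 genes and 7 and 6 of 8 genes. Neighbours could differ, as in 2 examples chosen after their values were seen. Cyp2c68 was above its cTEC level in both genotypes while the other Cyp2c genes tested were at or near 0 in Aβ0/0 mTEC, and Cyp1a1 and Cyp1a2 lie on the same stretch of chromosome 9, where Cyp1a2 was detected in 1 Aβ0/0 mTEC library and Cyp1a1 in none.

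**Figure D5:**
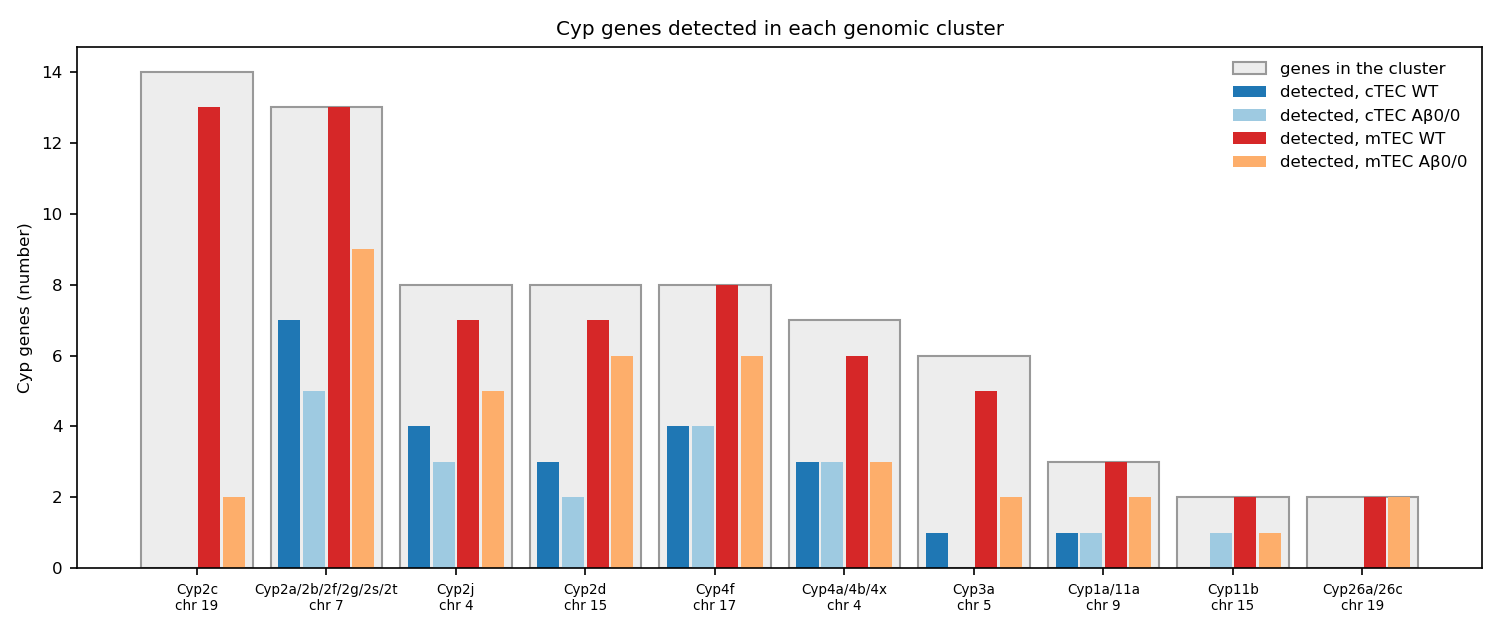
Number of Cyp genes detected in at least 1 library of a group (at least 5 counts after thinning), for each of the 10 genomic clusters, with grey bars for the number of genes in the cluster and coloured bars for the 4 groups. The Cyp2c cluster has the widest gap, with 13 genes detected in WT mTEC, 2 in Aβ0/0 mTEC and none in cTEC.

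Partner proteins of P450 enzymes and their known regulators were looked at as lists. All 10 partners were detected in every group. Between WT and Aβ0/0 mTEC 1 of the 10 passed and was higher in WT, beside 5.32% of all genes tested. It was Alas1, the rate-limiting enzyme of heme synthesis, at 178, 188 and 185 CPM in WT mTEC and at 96.1, 109 and 104 CPM in Aβ0/0 mTEC (log2 fold change 0.82, SE 0.15, adjusted p = 0.0352). Por, the reductase that feeds electrons to microsomal P450 enzymes, was at 77.2 to 85.7 CPM in WT mTEC and at 100.5, 42.7 and 45 CPM in Aβ0/0 mTEC (adjusted p = 0.79), where replicate 1 alone lay above the WT range. Between the subsets of WT mice 4 of the 10 partners passed, 2 higher and 2 lower in mTEC, beside 18.0% and 8.81% of all genes tested. Alas1 and the heme oxygenase Hmox1 were higher in mTEC (log2 fold change 1.03, SE 0.21, adjusted p = 0.00935 and log2 fold change 1.88, SE 0.31, adjusted p = 0.00466), and Por and the cytochrome b5 reductase Cyb5r3 were lower (log2 fold change -0.90, SE 0.26, adjusted p = 0.0344 and log2 fold change -0.69, SE 0.20, adjusted p = 0.0386). Among the regulators, Hnf4a, a nuclear receptor of liver cells, the bile acid receptor Nr1h4, the steroidogenic factor Nr5a1 and the vitamin D receptor Vdr were higher in mTEC than in cTEC of WT mice (adjusted p between 0.00119 and 0.0258, edgeR). Vdr was at 65.5, 44.7 and 49.2 CPM in WT mTEC and at 55.0, 22.9 and 9.95 CPM in Aβ0/0 mTEC (adjusted p = 0.624), and Ahr, the aryl hydrocarbon receptor, at 5.75 to 7.25 CPM and 1.36 to 14.1 CPM.

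Other genes moved with these differences, and their part in them was not tested. Aire was at 1003, 526 and 444 CPM in WT mTEC and at 180, 121 and 129 CPM in Aβ0/0 mTEC (log2 fold change 2.17, adjusted p = 0.0352), and Fezf2 at 374 to 439 CPM and 215 to 348 CPM (adjusted p = 0.209). Marker lists of tissues in which many Cyp genes are expressed did not share one pattern. Of all genes tested, 18.0% were higher in mTEC than in cTEC of WT mice, and 5.32% were higher in WT than in Aβ0/0 mTEC. The 7 hepatocyte markers summed to 127 to 159 CPM in WT mTEC, 82.4 to 128 CPM in Aβ0/0 mTEC and at most 19.07 CPM in cTEC, and 6 of them were higher in mTEC than in cTEC of WT mice. Between genotypes in mTEC 1 of the 7 passed, Alb, the defining one, at 3.67 to 5.08 CPM in WT and at most 0.0377 CPM in Aβ0/0 (adjusted p = 0.0352). Fgb, Apoa1 and Apoc3 had log2 fold changes of 1.67, 0.48 and 0.34 and Ttr, Ahsg and Ttpa of -0.54, -1.19 and -0.47 (adjusted p between 0.635 and 0.881 for these 6). The 4 markers of adrenal and gonadal steroid cells summed to 57.6 to 78.5 CPM in WT mTEC, 37.3 to 52.5 CPM in Aβ0/0 mTEC, 53.3 to 89.5 CPM in WT cTEC and 55.1 to 66.5 CPM in Aβ0/0 cTEC. Of these 4, 1 passed between genotypes in mTEC, Hsd3b1, with 1.48 to 2.09 CPM in WT mTEC and no count in any other group. Star was at 12.4, 19.3 and 7.72 CPM in WT mTEC and at 1.5, 5.38 and 3.43 CPM in Aβ0/0 mTEC, without overlap (log2 fold change 1.92, adjusted p = 0.244). Nr5a1 was at 1.37 to 3.67 CPM in WT mTEC and at 0, 0 and 3.39 CPM in Aβ0/0 mTEC (adjusted p = 0.905), and Fdx1 at 38.4 to 55.7 CPM and 31.4 to 53.7 CPM (adjusted p = 0.922). The 4 markers of airway secretory cells, in which Cyp2f2 is known, summed to 386 to 656 CPM in WT mTEC and 61.3 to 1588 CPM in Aβ0/0 mTEC, against 685 to 1493 CPM in WT cTEC and 389 to 1351 CPM in Aβ0/0 cTEC. Most of the cTEC sum was Bpifa1, which was lower in mTEC of WT mice (log2 fold change -1.54, adjusted p = 0.0142). Scgb1a1, the club cell marker of the same list, was higher in mTEC of WT mice, at 54.0, 84.3 and 55.0 CPM against 0.0412, 3.05 and 7.66 CPM in cTEC (log2 fold change 4.17, adjusted p = 0.0245). The 8 markers of dendritic cells, macrophages and B cells summed to 43.5 to 72.2 CPM in WT mTEC and 9.42 to 49.8 CPM in Aβ0/0 mTEC, and to 26.8 to 50.4 CPM in WT cTEC and 65.2 to 105.1 CPM in Aβ0/0 cTEC. Of these 8, 2 were higher in WT than in Aβ0/0 mTEC and 0 lower: the macrophage marker Adgre1 was at 22.3, 11.3 and 21.7 CPM against no count in Aβ0/0 mTEC (adjusted p = 0.0352), and the dendritic cell marker Itgax at 0.469, 1.54 and 0.628 CPM against no count (adjusted p = 0.0397). The cTEC markers summed to 1485 to 2177 CPM in WT mTEC and 1617 to 3091 CPM in Aβ0/0 mTEC, and thymocyte markers to 74.3 to 139 CPM and 23.8 to 111 CPM. In cTEC, 6 fibroblast markers summed to 2336 to 2938 CPM over both genotypes, against 193 to 397 CPM in mTEC. Beside this, Cyp1b1, also expressed in fibroblasts, was higher in cTEC. Nearly all of the cTEC sum was Dcn, at 2090 to 2804 CPM. Of the 6, Dcn, Col1a2 and Lum were higher in cTEC of WT mice, whereas Pdgfra, Pdgfrb and Col1a1 had log2 fold changes of 0.08, 0.64 and 0.36 between mTEC and cTEC (adjusted p between 0.395 and 0.965). Both subsets were sorted as Epcam+ cells, and whether fibroblasts were carried over was not tested. The 4 tuft cell markers summed to 212 to 553 CPM in WT mTEC and 287 to 1529 CPM in Aβ0/0 mTEC, and 0 of the 4 passed between these groups. Aβ0/0 mTEC replicate 1, which had the most Cyp genes detected in its group, was highest. Trpm5 was at 506, 86.4 and 46.9 CPM, Avil at 657, 76.2 and 63.5 CPM and Pou2f3 at 115, 32.8 and 42.2 CPM in the Aβ0/0 mTEC libraries. Dclk1 was at 180, 127 and 154 CPM there, above the 64.0 to 101 CPM of WT mTEC in every library (log2 fold change -0.90, adjusted p = 0.103, edgeR).

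Near-identical copies touch few of the values. A stretch of at least 300 bases with at least 97% identity to a transcript of another gene was found for 14 of the 94 members, for none of the 14 that passed between WT and Aβ0/0 mTEC, and for 3 of the 31 that passed between the WT subsets (Cyp2a5, Cyp2c68 and Cyp4f16).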

How the data were processed

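RNA was measured in 12 libraries of sorted cTEC and mTEC. The authors made libraries with the SMART-Seq v4 kit, which amplifies cDNA by PCR, and used bcl2fastq 2.20.0, Trim Galore, kallisto 0.43 and DESeq2, with mm10 as build, per the labels and methods. The deposited files hold estimated counts and TPM per transcript from kallisto, and a table of regularized log2 values that gave the gene symbols only. Estimated counts were summed per gene (GENCODE M21), rounded and tested with edgeR 4.0.16 in R 4.3.3 (TMM, filterByExpr, robust quasi-likelihood F-test, Benjamini-Hochberg over all genes tested, threshold 0.05). The fits used the 6 libraries of each comparison and all 12 for the difference of genotype effects. SE belong to the log2 fold changes. CPM of single genes use effective library sizes over all 12 libraries, and sums over lists use unscaled totals. Folds against groups without counts use a floor of 3 counts per library. Ratios to groups with few counts have exact binomial 95% intervals, which, like the floors, cover counting error only. Counts are PCR-amplified reads without molecular identifiers.

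The members, the role, partner and marker lists were chosen with earlier results of these data known. Members were named when they passed a test (beyond 15 in one direction, the 15 with the largest log2 fold change), were among the 20 highest in mean TPM, belonged to a role list or were among the 10 largest differences without overlap. Replicates are pools of mice, and p-values measure the spread between these libraries. By the study's list of sortings, cTEC and mTEC with the same genotype and number were taken as one pool, which the labels do not state; their residuals around group means correlated at 0.211, 0.0382 and 0.0779 in WT and 0.235, 0.0903 and 0.0562 in Aβ0/0. Alternatives were DESeq2 1.42.0, other size factors and filters, fits over all 12 libraries, a replicate block and leaving out each library. The tests were also run on simulated counts, and the outcome is not given here. Other steps used Python 3.11.15, numpy 2.4.6, scipy 1.17.1, pandas 2.3.3, matplotlib 3.10.9 and blastn 2.17.0. Unmatched transcripts held 0.45 to 0.512% of counts and were left out. The list of P450 regulators is described in part, without its counts, since 1 result of it is not reported here.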

Additional observations from a re-analysis of the deposited data

How the results depend on the processing

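The 14 members called between WT and Aβ0/0 mTEC depended on the setting. No filter, a filter on a mean of at least 10 counts and an edgeR fit on all 12 libraries called 0 of the 94 members (29, 20 and 17 with an unadjusted p under 0.05), DESeq2 on all 12 libraries called 4 and DESeq2 on the same libraries 12. Leaving out 1 library gave 0 to 23. In this comparison the genotypes share only a replicate number (correlations 0.227, 0.0782 and 0.0537 in mTEC, and 0.244, -0.0388 and 0.0582 in cTEC), and with a replicate block 0 were called. No called member changed direction under a setting that gave it a value, but for many of them the direction could not change. All 14, 18 of the 31 called in WT and 2 of the 4 called in Aβ0/0 had at most 3 counts in every library of the lower group. DESeq2 on all 12 libraries gave no value for 1 of the 14 and 6 of the 31 called in WT. Between mTEC and cTEC in WT, edgeR and DESeq2 on all 12 libraries called 20 and 16 members in place of 31, and leaving out 1 library gave 27 to 45. In Aβ0/0, DESeq2 on all 12 libraries called 10 in place of 4, and leaving out 1 library gave 2 to 3. In cTEC and for the difference of genotype effects, which most of the 14 could not pass, every setting called 0 (1 to 4 and 2 to 6 members with an unadjusted p under 0.05). With the replicate block, here taken as the pool, 19 in place of 29 members were higher in mTEC of WT mice, and 3 of the 4 calls in Aβ0/0 remained. With at least 20 counts for detection, WT and Aβ0/0 differed by 28.0 detected members in mTEC (39.0 at 5 counts) and 1.33 in cTEC (4.0), and mTEC and cTEC of WT by 37.3 (45.3). The 14 members had 14 to 226 counts in the WT mTEC libraries, so depth limits what a count of 0 shows.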

Other observations

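P450 genes outside the symbol rule were measured in the same libraries. Cyp51, the sterol demethylase of cholesterol synthesis, was at 50.2, 48.8 and 40.7 CPM in WT mTEC and 17.6, 14.8 and 19.4 CPM in WT cTEC, and it was higher in mTEC (log2 fold change 1.43, adjusted p = 0.00449, edgeR). Ptgis, the prostacyclin synthase, was at 1.2, 0.725 and 1.63 CPM in WT mTEC and without a count in Aβ0/0 mTEC. Cyp3a41a and Cyp3a41b, which carry a letter at the end of their symbols, had 76, 28 and 45 and 138, 96 and 49 counts in WT mTEC and none in Aβ0/0 mTEC, and Cyp3a41a also had 15, 55 and 232 counts in WT cTEC. Cyp4a12a had 58, 180 and 112 counts in WT mTEC, none in Aβ0/0 mTEC and 59, 139 and 0 in WT cTEC. Ptgis, Cyp3a41a and Cyp3a41b passed between WT and Aβ0/0 mTEC (adjusted p between 0.0352 and 0.0385, edgeR), beside 5.32% of all genes tested that were higher in WT. Without a count in Aβ0/0 mTEC, these genes had to be higher in WT to be tested. Other settings and near-identical copies were examined only for the members by the symbol rule. Of the pseudogenes, Cyp2d37-ps had 11, 26 and 24 counts in WT mTEC, 35, 0 and 0 in Aβ0/0 mTEC and none in cTEC, and Cyp3a63-ps had 55, 49 and 60 counts in WT cTEC, 9, 21 and 1 in Aβ0/0 cTEC and at most 11 in mTEC.

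Cyp2j8, an untested member, had 132 counts in Aβ0/0 mTEC replicate 3 and at most 7 in any other library. Cyp2a12 had 41 counts in Aβ0/0 mTEC replicate 2 and at most 8 in any other library.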
